A study of Mus musculus with 6 samples.

Results

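Satellite cells, the muscle stem cells of adult skeletal muscle, are recognised and sorted by proteins on their surface, and their resting state is marked by transcripts that are lost as the cells enter culture. The 10 genes described here are listed as markers of these cells, not all of them of the resting state. They encode the surface proteins Calcr, Cd34, Vcam1, Cxcr4, Megf10, Tnfrsf12a and Tenm4. The others are the secreted protein Chrdl2, the transcription factor Msc and the intermediate filament protein desmin (Des). The genes were chosen by name, with earlier results of these data known. All 10 of 10 were found among the 55494 rows of the deposited count table and passed the filter on low counts. Primary muscle stem cells (MuSCs) of wildtype mice were cultured for 2 days either as controls or with 11,12-EET, an epoxide of arachidonic acid made by cytochrome P450 enzymes, and 3 control and 3 EET libraries were sequenced. For the dose, the control medium, and the age, sex and number of mice, the sources used here give nothing, and they do not say whether each library had its own animal or culture. The spread behind each p-value is therefore one between libraries and may be technical.

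Quiescent satellite cells carry the calcitonin receptor Calcr, a G protein-coupled receptor whose signal through cyclic AMP and protein kinase A holds mouse satellite cells at rest, and for which collagen V is a ligand in that niche. Cd34 is a sialomucin that endothelial cells and fibro-adipogenic progenitors also carry, and Vcam1 and Cxcr4 are widely used to sort satellite cells. Desmin is a filament protein of the muscle lineage, whose amount is known to grow when satellite cells become myoblasts.

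After 2 days with EET, 4 of these 10 genes rose (Tnfrsf12a, Msc, Des and Chrdl2), 2 fell (Megf10 and Tenm4) and 4 did not pass the test (Calcr, Cd34, Vcam1 and Cxcr4). A gene was called when its adjusted p was under 0.05 in edgeR's quasi-likelihood test with Benjamini-Hochberg adjustment over all 16097 genes tested. Of those genes 47.9% were called, 24.6% higher and 23.3% lower, so that 6 calls among 10 genes are near the background. The median log2 fold change was 0.24 for the 10 genes and 0.005 for all genes tested. For Cxcr4 the libraries of the groups overlapped, and for the other 9 genes they did not, against 57.7% of all genes tested whose groups did not overlap.

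Over the whole transcriptome, fold changes ran from positive for short mRNAs to negative for long ones (Spearman rho of log2 fold change with mRNA length −0.68 across 13785 protein-coding genes, which are not independent replicates). The mRNAs of the 10 genes run from 984 bp (Tnfrsf12a) to 13172 bp (Tenm4). Each result is therefore also given from a fit in which every library's smooth trend with mRNA length and GC content was removed, and values from it compare a gene with mRNAs of similar length and composition. In that fit 34.1% of 13785 genes were called, 17% higher and 17.1% lower, and 2 of the 10 genes: Des, which was higher, and Cxcr4, which was lower. The trend runs along the groups, at 0.12 to 0.25 log2 units per doubling of length in the controls and −0.27 to −0.11 in the EET libraries, and an effect of EET on it cannot be told apart from a technical one.

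Des and Tnfrsf12a, the members with the highest levels, were both higher with EET as counted. Their upstream sequences are shown because the E-box, CANNTG, is the site bound by the myogenic factors and by Msc. Each runs from 250 to 20 bases before the RefSeq start (GRCm38.p6, coding strand, from RefSeq), with every E-box in capitals.
Des, chr1:75360042-75360272, plus strand: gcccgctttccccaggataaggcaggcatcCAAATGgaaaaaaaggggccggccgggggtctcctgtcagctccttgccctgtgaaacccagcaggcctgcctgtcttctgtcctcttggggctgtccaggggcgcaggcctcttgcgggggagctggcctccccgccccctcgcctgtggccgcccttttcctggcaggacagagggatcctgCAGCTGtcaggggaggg
Tnfrsf12a, chr17:23677469-23677699, minus strand: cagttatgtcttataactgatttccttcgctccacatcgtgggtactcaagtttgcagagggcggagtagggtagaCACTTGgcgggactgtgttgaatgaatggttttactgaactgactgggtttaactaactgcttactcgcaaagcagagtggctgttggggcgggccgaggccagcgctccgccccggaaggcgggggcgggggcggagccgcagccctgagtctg

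The Des window holds 2 E-boxes, of which 1 is CAGCTG, and the Tnfrsf12a window holds 1. The pattern CANNTG reads the same on both strands and was present in 63.62% of all 32851 promoter windows of that length, and CAGCTG, which is contained in it, in 11.9%. Of the 8 windows found for 6 of the 10 genes (Des, Cxcr4, Cd34, Calcr, Tenm4 and Tnfrsf12a), 5 held CANNTG and 1 held CAGCTG. Calcr and Tenm4 have more than 1 window, so windows are not genes. For the Calcr window at chr6:3763643-3763873, the bases after the start were not found in a GENCODE transcript of the gene. The sequence TATAAA, searched on both strands, was in 1 of the 8 windows, that of Cxcr4, and in 11.82% of all windows. The CArG box, the site of serum response factor, was in 0 of the 8 and in 1.42% of all. These matches describe letters in a window and not binding.

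Levels are compared between genes only as CPM per kb of mRNA, where CPM is the count scaled to library totals and TMM factors, and the length is taken from the longest protein-coding transcript. In control libraries Des stood highest, at 196 ± 18.7 CPM per kb (mean ± SD, n = 3 here and below), above Tnfrsf12a at 171 ± 9.50, with no overlap of libraries. With EET these genes overlapped, at 285 ± 27.3 for Des and 309 ± 27.0 for Tnfrsf12a. Vcam1 followed at 64.4 ± 0.753 CPM per kb in controls, then Cd34 at 23.8 ± 0.535, Cxcr4 at 15.2 ± 0.390 and Megf10 at 11.8 ± 0.846. Chrdl2 (2.89 ± 0.204) and Msc (2.12 ± 0.133) were lower still. Tenm4 and Calcr, at 0.383 ± 0.0435 and 0.358 ± 0.0499 CPM per kb in controls, overlapped and were the lowest. With EET the order was the same apart from the exchange of the top pair and of the bottom pair, Calcr being at 0.462 ± 0.0512 and Tenm4 at 0.255 ± 0.0025, with no overlap. The length trend between the groups also enters these orders, and so does the length taken. The median over coding transcripts is 722 bp for Tnfrsf12a and 3028 bp for Des. It is 5817 bp for Tenm4 and 3518 bp for Calcr. With these lengths the mean of Tnfrsf12a would be above that of Des in both groups. The mean of Tenm4 would be above that of Calcr in both, so neither pair would exchange.

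**Figure D1:**
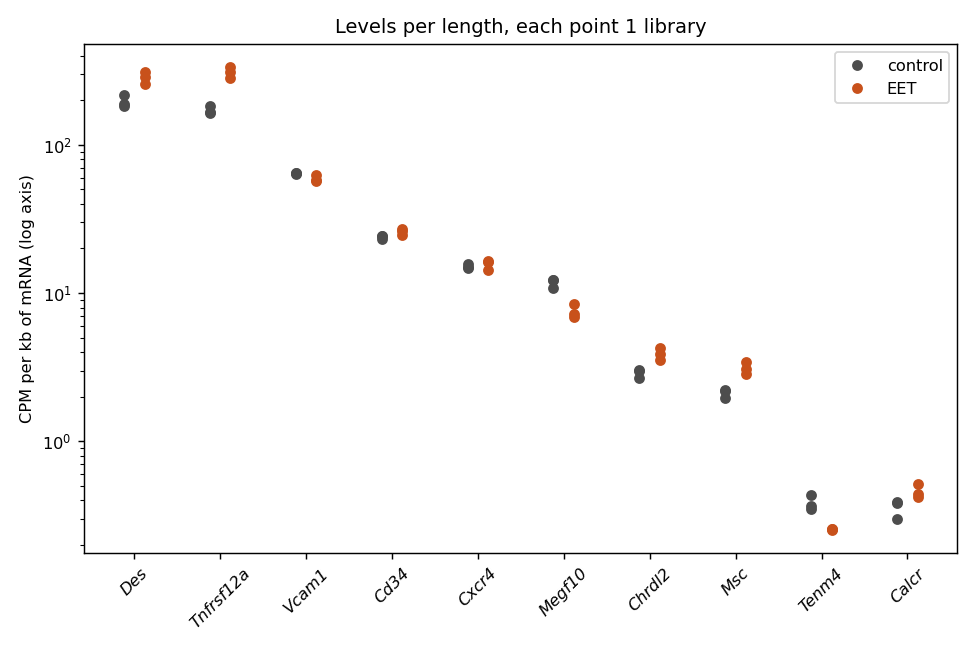
CPM per kb of mRNA (log axis) of the 10 genes in each library, with control and EET libraries side by side and genes ordered by their control mean. With the longest protein-coding transcript as the length, levels span from 0.358 CPM per kb (Calcr) to 196 (Des) in controls.

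Among the surface receptors, Calcr had the fewest counts. Its counts were 43, 54 and 46 in the controls and 58, 50 and 63 with EET, which is 1.13, 1.45 and 1.46 CPM against 1.65, 1.60 and 1.96 CPM. All EET libraries lay above all controls, but the gap was smaller than the spread within either group. The log2 fold change of 0.37 did not pass the test (95% interval −0.20 to 0.94, edgeR adjusted p = 0.283). Calcr has an mRNA of 3763 bp, a length at which the trend is small (−0.12), and once it was removed the value was 0.49 (−0.10 to 1.08, adjusted p = 0.195). The interval includes no change as well as nearly a doubling of the level, so the direction and size of any change in Calcr were not determined.

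Genes around Calcr moved in both directions. The collagen V chain genes, whose products are its ligand in the satellite cell niche, all fell as counted. Col5a3 went from 105 ± 3.27 to 59.6 ± 4.48 CPM (−0.82 as counted and −0.50 with the trend removed, in log2 units, called in both fits) and Col5a1 from 151 ± 1.13 to 87.1 ± 6.68 CPM (−0.80, or −0.25, called in both). Col5a2 fell by 0.58 on the log2 scale as counted and was not called with the trend removed (−0.07, adjusted p = 0.299). Of the 3 Ramp genes, which encode partners that change the ligand choice of the calcitonin receptor, Ramp2 rose from 8.62 ± 0.618 to 15.1 ± 1.38 CPM (0.81 as counted, and not called at 0.07 with the trend removed). Ramp3 rose as counted from 0.769 ± 0.303 to 1.49 ± 0.239 CPM (adjusted p = 0.039; 0.644 with the trend removed), and Ramp1, at 0.442 ± 0.109 and 0.795 ± 0.336 CPM, did not pass. Lats1, a Hippo kinase downstream of protein kinase A in this pathway, fell by 0.67, and by 0.18 with the trend removed (adjusted p = 0.0106), and Gnas, the stimulatory G protein subunit, fell by 0.28 as counted but was not called with the trend removed (−0.13). Here and below, partners beyond the fixed rule were named for their role after their values were seen.

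Cd34 was at 61.6, 61.7 and 59.3 CPM in the controls and at 66.5, 62.7 and 69.2 CPM with EET. The EET libraries lay above the controls without overlap, at 1.09-fold the control level, a log2 difference of 0.12 that did not pass (95% interval −0.04 to 0.28, adjusted p = 0.197). At its mRNA length of 2554 bp the fitted trend gives 0.12, and with the trend removed the log2 fold change was −0.0009 (−0.12 to 0.12, adjusted p = 0.993). With the median over transcripts as the length in that fit, Cd34 was called higher (0.19, adjusted p = 0.0193). Of the 14 endothelial markers 8 fell and 1 rose (11 and 0 with the trend removed), and their summed level ran from 431 to 445 CPM in controls and from 299 to 321 CPM with EET. Of the 12 markers of fibro-adipogenic progenitors 4 fell (Col15a1, Col1a1, Col3a1 and Pdgfra) and Mfap5 rose as counted, while with the trend removed Col15a1, Dcn, Ly6a and Smoc2 were lower and Col3a1 was higher. Their sums were 896 to 946 CPM in controls and 755 to 807 CPM with EET. No marker of either list was at 0 in all libraries. In each marker list, here and below, values are given for the 2 genes with the largest shares of the sum, by mean CPM over all 6 libraries and not per length, which is no order of their levels. Of the endothelial markers Eng, at 98.1 ± 5.84 CPM without and 90.8 ± 5.53 CPM with EET, was called in neither fit, and Pecam1 fell from 76.9 ± 2.49 to 50.4 ± 3.42 CPM and was called in both (−0.61, or −0.54 with the trend removed). Col3a1 fell from 296 ± 3.77 to 255 ± 6.73 CPM as counted (−0.21) but was called higher with the trend removed (0.17, adjusted p = 0.00646). Col1a1 fell from 202 ± 22.8 to 151 ± 20.4 CPM (−0.42) and was not called with the trend removed (−0.06, adjusted p = 0.765). The part of these cells in the Cd34 level was not tested, and in bulk RNA fewer cells of a type and less RNA per cell cannot be told apart. Among partners of Cd34, Selp, the gene of P-selectin, fell from 15.6 ± 2.23 to 5.81 ± 1.29 CPM (−1.42 as counted and −1.35 with the trend removed, called in both fits). Podxl, a related sialomucin, fell by 0.49 as counted and was not called with the trend removed (−0.12).

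Vcam1, the adhesion molecule that binds integrin alpha4 beta1, was at 225, 225 and 220 CPM in the controls and at 199, 201 and 219 CPM with EET. The highest EET library lay just below the lowest control. The log2 fold change of −0.11 did not pass (95% interval −0.25 to 0.02, adjusted p = 0.163), and it was −0.06 with the trend removed (−0.15 to 0.03, adjusted p = 0.3). Vcam1 was called lower when library totals replaced TMM scaling (−0.18, adjusted p = 0.0381) and without control replicate 1 and EET replicate 3 together (−0.17, adjusted p = 0.00777). The genes of both chains of integrin alpha4 beta1 fell as counted. Itgb1, the beta1 chain, went from 1385 ± 18.7 to 1089 ± 78.1 CPM (−0.35, or −0.23 with the trend removed, called in both fits), and Itga4, the alpha4 chain, from 3.26 ± 1.01 to 1.49 ± 0.439 CPM (−1.13, adjusted p = 0.00439), a call that was lost with the trend removed (−0.57, adjusted p = 0.0945). Endothelial cells also express Vcam1, and their markers moved as given for Cd34.

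Cxcr4, the receptor of the chemokine Cxcl12, is encoded on chromosome 1 (minus strand, 128588199 to 128592293, GRCm38). It was at 27.1, 26.9 and 28.2 CPM in the controls and at 25.9, 29.1 and 29.6 CPM with EET. The groups overlapped, with the lowest of all 6 libraries in the EET group and also the highest. The log2 fold change was 0.04 (95% interval −0.15 to 0.23, adjusted p = 0.723). At 1805 bp the fitted trend gives 0.36, so Cxcr4 was lower than mRNAs of like length and GC content. With the trend removed its log2 level was 4.87, 4.95 and 5.03 in the controls and 4.48, 4.65 and 4.76 with EET, without overlap, and the log2 fold change was −0.32 (−0.49 to −0.14, adjusted p = 0.00552). This call also held with the replicate block (−0.32, adjusted p = 0.00153) and with the median over transcripts as the length (−0.26, adjusted p = 0.0279). Cxcl12 fell from 213 ± 9.10 to 163 ± 10.1 CPM as counted (−0.38), a call that was lost with the trend removed (0.02, adjusted p = 0.712). Ackr3, a scavenger receptor of Cxcl12, was at 75 ± 1.08 and 76.4 ± 3.63 CPM and was called in neither fit, and Mif, another ligand of Cxcr4, rose from 169 ± 14.5 to 312 ± 42.7 CPM (0.88) but was called lower with the trend removed (−0.34).

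Leukocytes also express Cxcr4. Of 12 leukocyte markers 2 fell and 0 rose as counted, or 8 and 1 with the trend removed. No marker was at 0 in all libraries, and the summed level was 328 to 360 CPM in the controls and 411, 235 and 214 CPM in EET replicates 1, 2 and 3. Lyz2 and Adgre1 took up most of the sum over all libraries, at 216 ± 12.7 and 26.7 ± 1.81 CPM in the controls and 185 ± 84.8 and 12 ± 9.67 CPM with EET. Cxcr4 was lowest in EET replicate 1, the library with the highest leukocyte sum, while among the controls both were highest in replicate 3. The part of leukocytes in the Cxcr4 level was not tested.

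Megf10, a receptor with EGF repeats that is known from satellite cells, where it acts with Notch, fell most clearly among the 10 genes as counted. It was at 81.1, 92.3 and 91.9 CPM in the controls and 52.0, 54.5 and 63.7 CPM with EET, with a gap between the groups wider than the spread within either. The log2 fold change was −0.64 ± 0.09 (± SE; 0.641 of the control level, adjusted p = 3.39e-05). Its mRNA of 7514 bp is long, the fitted trend there gives −0.58, and with the trend removed the value was −0.07 (95% interval −0.18 to 0.04, adjusted p = 0.37). With the median over transcripts as the length in that fit, the value for Megf10 was −0.15 and just missed the call (adjusted p = 0.0511). Both Notch pathway genes in the list of partners were called in both fits: Notch1 fell from 102 ± 19.1 to 37.1 ± 7.30 CPM (−1.46, or −0.90) and Jag1 from 59.1 ± 3.31 to 30.2 ± 3.25 CPM (−0.97, or −0.56). Other Notch genes, from the list of other satellite cell genes, differed: Notch3 fell as counted (−0.76) and was not called with the trend removed (adjusted p = 0.0592), Hes1 rose as counted (0.33) and was called lower with the trend removed (−0.21), and Hey1 and Heyl were called in neither fit.

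Tnfrsf12a, also named Fn14, the receptor of the cytokine TWEAK, had the largest fold change of the 10 genes. The gene is on chromosome 17 (minus strand, 23675445 to 23677468, GRCm38). It was at 179, 164 and 162 CPM in the controls and 329, 306 and 276 CPM with EET, so that the lowest EET library was far above the highest control. The log2 fold change was 0.85 ± 0.08 (1.81-fold, adjusted p = 1.52e-06). Its mRNA is the shortest of the 10, the fitted trend there gives 0.84, and with the trend removed the value was 0.01 (95% interval −0.09 to 0.10, adjusted p = 0.93). This result depended on the length taken: with the median over its 4 coding transcripts (722 bp), the call was kept at 0.33 (adjusted p = 7.5e-05). Its ligand gene Tnfsf12, at 2.67 ± 0.772 and 3.68 ± 0.790 CPM, was called in neither fit. Among its adaptors Traf2 rose by 0.27 (0.26 with the trend removed, called in both fits), Traf5 rose by 0.44 as counted and Traf3 fell by 0.57 as counted, neither being called with the trend removed. Birc3, an inhibitor of apoptosis that binds Traf2, fell in both fits (−0.28, or −0.32).

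Tenm4, a teneurin that spans the membrane and binds latrophilins, was at 4.60, 4.85 and 5.69 CPM in the controls and 3.39, 3.33 and 3.36 CPM with EET. The EET libraries lay close together and below all controls. Its log2 fold change was −0.58 ± 0.17 (adjusted p = 0.0111), a call that was lost without control replicate 3 (−0.49, adjusted p = 0.0624). It has the longest mRNA of the 10, at 13172 bp, and with the trend removed its value was 0.05 (95% interval −0.31 to 0.41, adjusted p = 0.86). Tenm3 fell from 115 ± 16.1 to 56.5 ± 7.07 CPM (−1.02, or −0.39 with the trend removed) and was called in both fits, and Tenm2 fell as counted only (−1.22, or −0.59). Of the latrophilin genes, Adgrl2 and Adgrl3 fell in both fits (−0.92 and −1.38, or −0.47 and −0.87), while Adgrl1 fell by 0.23 as counted and was called higher with the trend removed (0.30).

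**Figure D2:**
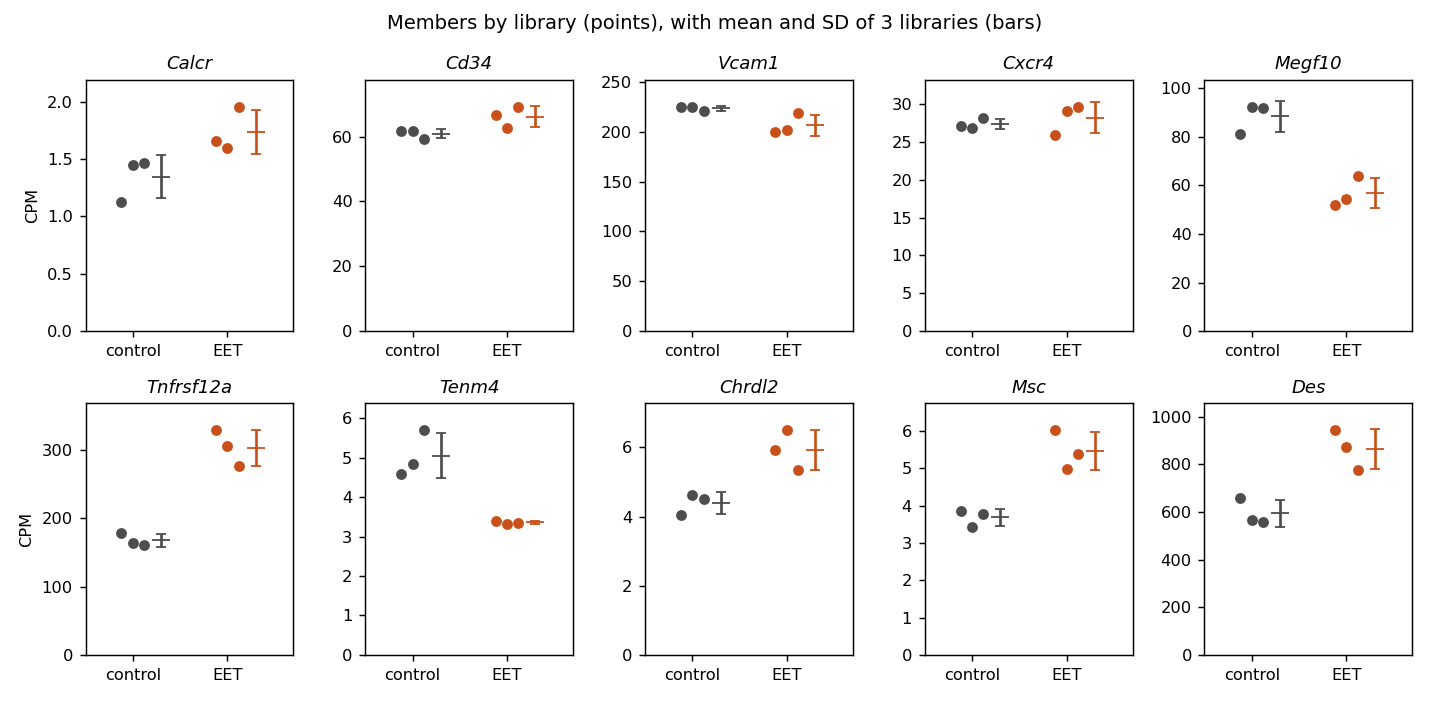
CPM of each of the 10 genes in the 3 control and 3 EET libraries (points), with mean and SD (bars) and axes from 0. The groups overlap for Cxcr4 and are apart for the others.

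Chrdl2, a secreted protein that binds bone morphogenetic proteins, was at 4.05, 4.63 and 4.52 CPM in the controls and 5.93, 6.49 and 5.34 CPM with EET. The groups did not overlap, and the log2 fold change of 0.43 ± 0.16 passed narrowly (adjusted p = 0.0377). The call did not hold without control replicate 1 (adjusted p = 0.113), control replicate 2 (0.0668), control replicate 3 (0.0781), EET replicate 1 (0.0736), EET replicate 2 (0.133), or control replicate 1 and EET replicate 3 together (0.0689). Scaling by library totals (0.0769) and dropping the filter on low counts (0.0813) also ended it. With the trend removed the value was −0.09 (95% interval −0.43 to 0.25, adjusted p = 0.704). Among the ligands, Bmp2 fell by 0.35 as counted and was not called with the trend removed, Bmp4 and Bmp7 were called in neither fit, and the other extracellular inhibitors Chrd, Chrdl1, Nog and Grem1 were called in neither.

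Msc, musculin or MyoR, is a basic helix-loop-helix factor that represses genes with E-boxes as a partner of E proteins. It was at 3.86, 3.43 and 3.78 CPM in the controls and 6.02, 4.99 and 5.37 CPM with EET, all of them above the controls. It rose 1.48-fold (log2 fold change 0.57 ± 0.17, adjusted p = 0.011), a call just lost without control replicate 2 (adjusted p = 0.0503). With the trend removed the value was 0.13 (95% interval −0.22 to 0.47, adjusted p = 0.592). The E protein genes Tcf12 and Tcf4 fell by 0.54 each as counted and Tcf3 rose by 0.16, and none of these was called with the trend removed (−0.10, −0.01 and 0.06).

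The Des gene is on chromosome 1 (plus strand, 75360329 to 75368579, GRCm38, GENCODE M21). Des was at 659, 567 and 556 CPM in the controls and 943, 872 and 778 CPM with EET. Every EET library was above every control. It rose 1.46-fold (log2 fold change 0.54 ± 0.08, adjusted p = 9.54e-05). At 3028 bp its mRNA is near the median length of all genes tested (3201.5 bp) and the fitted trend gives only 0.03, so that the value with the trend removed was 0.52 ± 0.07 (95% interval 0.37 to 0.66, adjusted p = 0.000138). Des was called higher in the main test and in all 19 alternatives run for it, at 0.47 to 0.68. The other filament genes did not rise in both fits. Vim, the gene of vimentin, was at 5001 ± 436 and 5734 ± 238 CPM and was called higher as counted (0.20, adjusted p = 0.0396) but not with the trend removed (−0.04). Nes and Synm fell as counted (−0.46 and −0.66) and were not called with the trend removed (−0.03 and −0.05), and Sync, a filament-binding protein, fell in both fits (−0.47, or −0.76). Plec, the gene of the linker plectin, fell from 1061 ± 93.1 to 589 ± 42.8 CPM (−0.85, or −0.44 with the trend removed, not called there), and Cryab, the chaperone of desmin, rose by 0.46 as counted and was called lower with the trend removed (−0.30).

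Differentiating muscle and mural cells also express Des. Of 16 genes of differentiating muscle 13 were tested, of which 8 rose and 1 fell, or 3 and 0 with the trend removed, but most were weak, and their summed level was 104 to 116 CPM in controls and 110 to 120 CPM with EET. Most of that sum came from the long mRNA of Ttn, at 50.8 ± 9.86 and 29.1 ± 2.55 CPM, and from Acta1, at 32.6 ± 5.28 and 45.8 ± 4.08 CPM. Of 11 markers of smooth muscle cells and pericytes 2 rose and 6 fell, or 0 and 4 with the trend removed, with sums of 458 to 472 CPM and 400 to 419 CPM. Acta2 and Pdgfrb took up most of it, at 198 ± 14.7 and 92.5 ± 5.98 CPM in controls against 231 ± 17.3 and 59.5 ± 2.30 CPM with EET. The list of 8 Schwann cell markers, in whose sum Ngfr had the largest share (187 ± 5.68 and 131 ± 11.9 CPM), had 5 that fell and 1 that rose, or 5 and 0 with the trend removed, and sums of 458 to 460 CPM in controls and 350 to 384 CPM with EET. No gene of these 3 lists was at 0 in all libraries, and their part in the levels of the 10 genes was not tested.

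**Figure D3:**
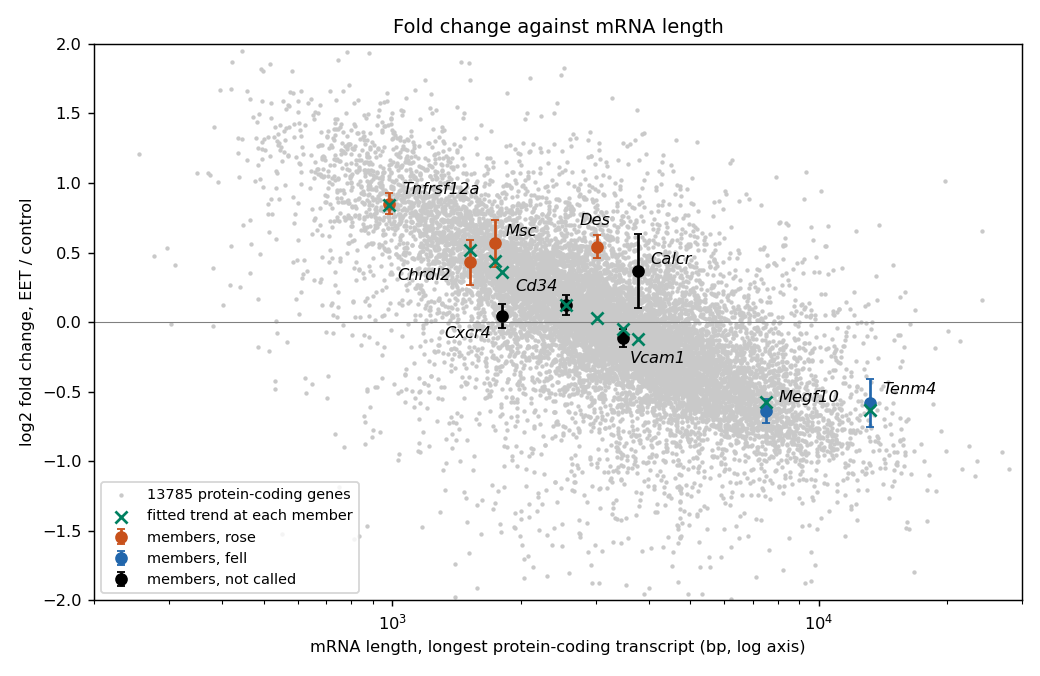
Log2 fold change (EET over control) against mRNA length (bp, log axis) for 13785 protein-coding genes (grey; 29 lie outside the axes) and the 10 genes (points with SE, coloured by call). Crosses give the fitted length and GC trend at each of the 10: Tnfrsf12a, Megf10 and Tenm4 lie on or near their cross, Des above and Cxcr4 below. Calcr also lies above its cross, with a wide SE (0.27), and was not called.

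**Figure D4:**
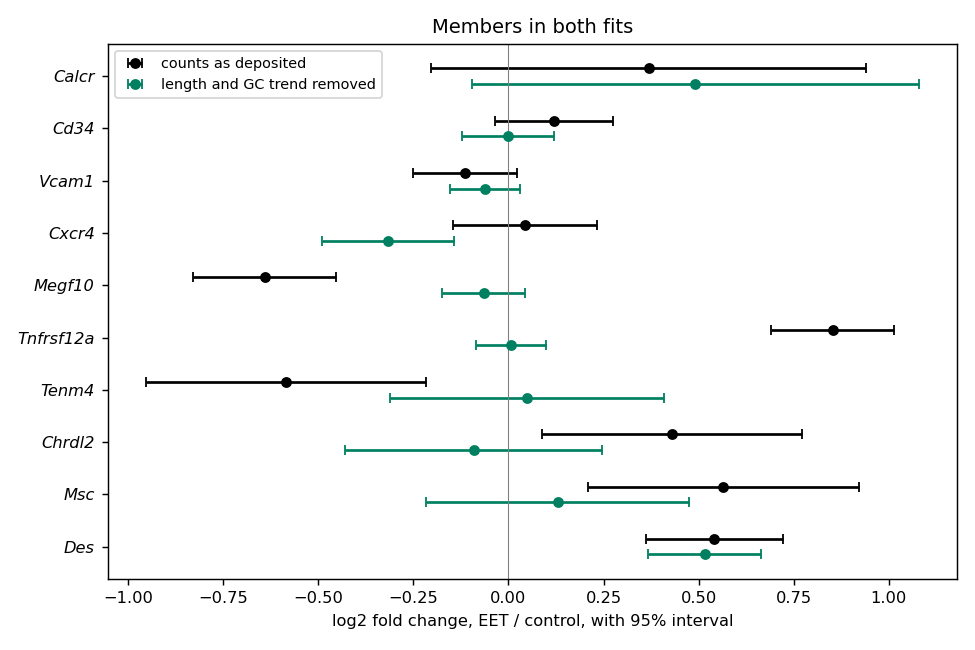
Log2 fold change with 95% interval of the 10 genes with counts as deposited (black) and after removal of the length and GC trend (green). Des is at 0.54 and 0.52, while Tnfrsf12a moves from 0.85 to 0.01 and Cxcr4 from 0.04 to −0.32.

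The wider sets of genes were counted in the same fits. Of 50 partner genes of the 10, 49 were tested, of which 8 rose and 27 fell at a median log2 fold change of −0.35, or 3 and 15 at −0.12 with the trend removed, where the median of all genes was −0.02. The partners had a median mRNA length of 3947 bp. Those with the smallest p, the fixed rule for naming, were Mif, Ramp2, Cryab and Traf5 among those that rose. Among those that fell they were Col5a1, Col5a3, Plec and Jag1, though other partners fell by more. Of 29 other surface and quiescence-associated genes of satellite cells 28 were tested, of which 6 rose and 10 fell at a median of −0.12, or 2 and 7 at −0.06 with the trend removed. These lists share genes with the marker lists. Tek is also an endothelial marker, and Notch3 and Rgs5 are also markers of smooth muscle cells and pericytes, so each is counted in both lists.

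Among these other satellite cell genes, those that rose with the smallest p were Cd9, Gpx3, Cd82 and Fgfr4. Fgfr4, a receptor of fibroblast growth factors found on myogenic cells, went from 90.3 ± 3.15 to 111 ± 1.66 CPM and was called higher in both fits (0.29, or 0.31 with the trend removed). The tetraspanin gene Cd9 rose from 120 ± 4.76 to 167 ± 13.5 CPM (0.48) but was called lower with the trend removed (−0.19), and Cd82 (0.32) and Gpx3 (0.53) were no longer called (−0.06 and 0.05). Those that fell with the smallest p were Foxo3, Pax7, Met and Cdh2. Cdh2, the gene of N-cadherin, which holds satellite cells in their niche, went from 301 ± 6.95 to 217 ± 20.9 CPM and was called lower in both fits (−0.47, or −0.16). Foxo3, a transcription factor of the resting state, fell by 0.61 and Met, the receptor of hepatocyte growth factor, by 0.55, and neither was called with the trend removed (−0.09 and −0.06). Pax7, which defines the lineage, was at 114 ± 4.71 and 83.5 ± 1.64 CPM (−0.45, or −0.05 with the trend removed, not called there). Itga7, the integrin chain used to sort satellite cells, was at 957 ± 44.1 and 889 ± 26.9 CPM and was called in neither fit.

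Over the 6 libraries the genes whose centred log2 CPM lay closest to that of Cd34 were Nelfb, Trp53i11 and Retreg3, at root mean square distances of 0.0185, 0.02 and 0.022 log2 units among 11385 genes with a mean of at least 2 CPM. Calcr was followed less closely, with Zscan2, Tmem151a and Zdhhc1 at 0.0753, 0.0832 and 0.093. Calcr had only 43 to 63 counts per library, and the part of count noise in these distances was not tested. The distances are a description and no evidence of shared regulation.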

How the data were processed

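Libraries with a dUTP-marked strand were made from fragmented poly(A) RNA and read from both ends, per the labels' protocols. The deposited table gives whole-number counts per gene symbol, not normalized. The submitters' processing notes name FastQC, cutadapt, DESeq2 and GRCm38; the aligner, counting step and strand setting were not given in the sources used here. Totals ran from 30371291 to 37243882 counts per library. Counts from 11 to 50 were even in 61.3 to 62.1% of cases in controls and 65 to 65.6% with EET, so mates of a fragment may have been counted apart, and precision is lower than the totals imply. Antisense genes overlap exons of Msc, Des, Cd34, Vcam1 and Tenm4, with at most 24 counts in any library.

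Groups were read from the titles. The main test was edgeR 4.0.16 in R 4.3.3, with filterByExpr, TMM, robust glmQLFit and glmQLFTest, 3 EET against 3 control libraries, with no block. Intervals are log2 fold change ± t quantile times SE. The trend fit used a robust loess (span 0.3, degree 2) of each library's deviation, log2 of counts plus 0.5, on log2 length and GC percent (GENCODE M21, GRCm38, longest protein-coding transcript; 53186 rows matched by symbol), entered as an offset for protein-coding genes. Both were tested on simulated counts. Alternatives were DESeq2 1.42.0, limma-voom (limma 3.58.1), scaling by RLE or library totals, no filter or one of over 5 CPM in 3 or more libraries, no robust estimation, the replicate block, counts divided by 2 and leaving out libraries; a median transcript length was added later. Named genes are the 10 members, and per wider list the 4 rising and 4 falling with the smallest p, the 2 highest by mean CPM of each marker list and the 3 genes closest in pattern to Calcr and Cd34; 1 gene that this selects is not reported here. Members and lists were chosen with earlier results of these data known.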

Additional observations from a re-analysis of the deposited data

How the results depend on the processing

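With the length and GC trend removed, 4696 genes were called instead of 7716, 2 of the 10 genes instead of 6 and 30 genes of the wider lists (partners, other satellite cell genes and differentiation) instead of 60; with the replicate block added to that fit the counts were 4965, 2 and 33. Directions turned in those fits for Cd34 (−0.0009, or −0.0021 with the block), Cxcr4 (−0.3171, or −0.3206), Tenm4 (0.0484, or 0.0481) and Chrdl2 (−0.0917, or −0.0877). Cxcr4 also turned with library totals (−0.0253), without control 1 and EET 3 together (−0.016) and with the median transcript length (−0.2619), where Cd34 was called higher (0.19, adjusted p = 0.0193) and 4 of the 10 were called. Cxcr4 and Cd34 were not called as counted. The cause of these changes was not tested. Leaving out 1 library gave 6320 to 8055 genes, 4 to 6 of the 10 and 48 to 59 of the wider lists. The replicate block alone gave 8321, 6 and 63 calls. Correlations of same-numbered deviations were −0.0146, −0.0483 and 0.0031, and those of differently numbered libraries ran from −0.0372 to 0.0542. With 3 libraries per group these values cannot decide whether the numbers pair the libraries. Counts divided by 2 gave 6 of the 10. Under the filter of over 5 CPM, 7 of the 10 were tested and 4 called. Calcr, Tenm4, Chrdl2 and Msc had the fewest counts, 43 to 211 per library. How far depth limits them was not tested. Counts divided by 2 left their calls as they were, but this scales all libraries alike and adds no sampling noise.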
